A study of Mus musculus with 6 samples.

Results

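The study measured gene expression in natural killer (NK) cells, innate lymphocytes with cytotoxic function, and the genes described here are 30 genes of the tricarboxylic acid (TCA) cycle, of pyruvate entry and of anaplerosis. They were chosen by function, as pyruvate import and pyruvate dehydrogenase, the cycle enzymes without succinate dehydrogenase, the malate and aspartate shuttle and the entry of glutamine carbon, and all 30 were found by symbol among the 56953 genes of the count tables. Splenic NK cells of wild-type C57BL/6 mice were cultured for 7 days with recombinant human interleukin-2 (1700 U/ml), at 20% oxygen (normoxia, 3 libraries) or at 1% oxygen (hypoxia, 3 libraries). Both groups shared the same medium, to which sodium pyruvate and L-glutamine had been added, and 5% CO2. The labels do not give the age of the mice, nor whether the 3 biological replicates of a group are separate animals, pooled animals or separate cultures, and a p-value therefore measures only how these libraries vary. No library of cells before culture was used here.

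The TCA cycle oxidises acetyl groups to CO2 in the mitochondrial matrix and passes their electrons to the respiratory chain. Pyruvate enters through a carrier and the pyruvate dehydrogenase complex, which kinases switch off and phosphatases switch on, and anaplerotic enzymes refill the cycle when intermediates are withdrawn for synthesis. Cells at low oxygen are known to divert pyruvate to lactate, with pyruvate dehydrogenase kinase as a classical target of the transcription factor HIF-1.

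Totals were 55104810 to 55794698 estimated counts per library, so 1 count was worth about 0.018 CPM (the count scaled to library size, with TMM factors between libraries). The summed level of 9 NK cell markers was 14668 to 17474 CPM in hypoxia and 15641 to 16871 CPM in normoxia, and 2 of them, Eomes and Klre1, were lower in hypoxia (log2 fold changes -0.63 and -0.35). Sums of 7 T cell markers (149 to 188 against 93.9 to 110 CPM) and 5 basophil and mast cell markers (76.1 to 89.5 against 19.1 to 27.2 CPM, nearly all of it Mcpt8) were higher in hypoxia without overlap. Among the T cell markers this was so for Cd3d, Cd3g and Cd4, the 3 of 7 that were called, while Cd3e, Cd5, Cd6 and Cd8a overlapped between groups and were not called. The 6 neutrophil markers summed to 0.683 to 1.92 against 0.127 to 0.323 CPM, with S100a8 and S100a9 called higher. Ly6g of that list, too low to test, went the other way (at most 0.0519 against 0.0905 to 0.171 CPM). The 5 B cell markers summed to 0.996 to 1.14 against 0.256 to 0.525 CPM. In hypoxia this was nearly all Cd79b, which was called higher. Cd79a, too low to test, was at most 0.0866 CPM in hypoxia and 0.145 CPM in normoxia. The 6 monocyte and macrophage markers summed to 2.44 to 3.22 against 4.13 to 5.90 CPM. In this list Cd14 was called lower, Csf1r was not called, and Lyz2 was called higher, from 0 in all normoxia libraries to at most 0.381 CPM. The 5 dendritic cell markers summed to 4.08 to 4.82 against 6.35 to 6.64 CPM, with Zbtb46 called lower and Xcr1 called higher, and the 5 erythroid markers to at most 0.156 CPM, and C1qa and Clec9a were at 0 in all libraries. The part of these markers in the results below was not tested, and fewer cells of a type cannot be told apart from less of an mRNA per cell in these bulk libraries.

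After 7 days at 1% oxygen, the mRNAs of 3 of the 30 genes were higher and those of 6 were lower (edgeR quasi-likelihood test, adjusted p under 0.05 over all genes tested), and the fitted changes of these 9 ran from 1.18-fold for Idh3g to 1.61-fold for Idh1. The genes that rose were Idh2, Pdp1 and Dlst, and those that fell were Idh1, Pdp2, Cs, Dlat, Pdhb and Idh3g. In 2 pairs, genes whose enzymes catalyse the same reaction moved in opposite directions: Pdp1 rose and Pdp2 fell, and Idh2 rose and Idh1 fell. All 30 genes passed the filter on low counts. Over all 15591 genes tested, 20.9% were called, 1745 (11.2%) as higher and 1516 (9.72%) as lower. The 3 of 30 that rose are a share close to that of all genes, and the 6 of 30 that fell a larger one, a difference that was not tested. The values of the 2 groups were fully separate for 14 of the 30 genes, with hypoxia above in 5 and below in 9, and for 38.3% of all genes tested (19.6% above and 18.7% below). Their median log2 fold change was -0.07, beside -0.0052 for all genes tested, and 21 of the 30 lay below 0, as did 50.8% of all genes.

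The replicate numbers were taken to pair the libraries of the 2 groups, though the labels do not say what a number shares. With that number added to the fit as a block 15 of the 30 genes were called, 6 as higher and 9 as lower, where 39.2% of all genes were called (19.2% higher and 20.0% lower). These 15 contained the 9 above, and the added genes were Idh3a, Pcx and D2hgdh, which were higher, and Pdha1, Dld and Got1, which were lower. Without hypoxia replicate 2, the calls of the fit without the block fell to 2 higher and 2 lower. With scaling by library size alone they were 5 higher and 4 lower, beside 2384 higher and 999 lower over all genes, and the median log2 fold change was 0.02 for the 30 genes and 0.08 for all genes.

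**Figure D1:**
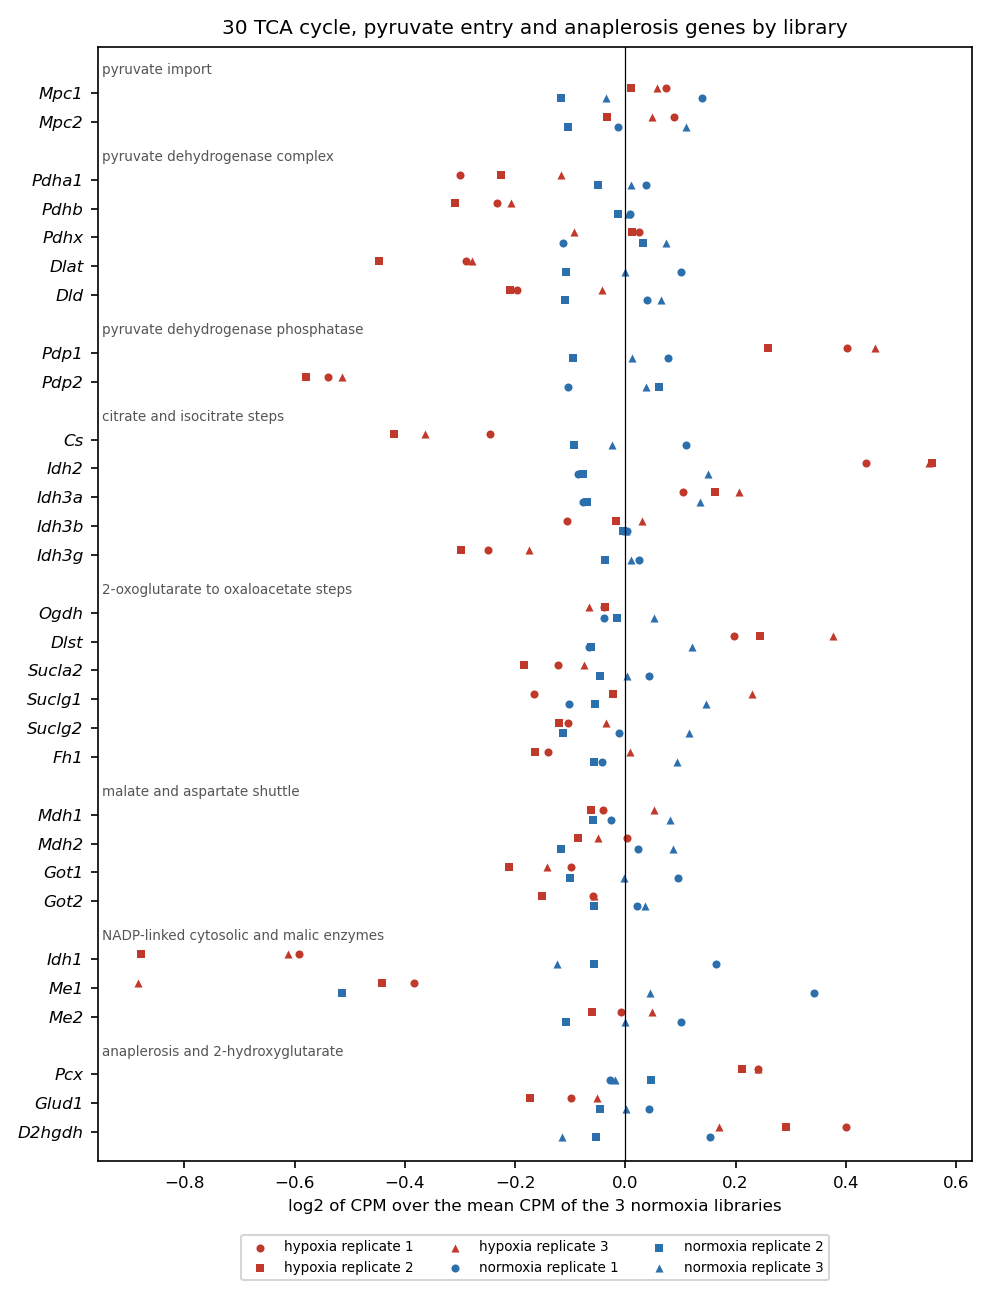
Level of each of the 30 genes in each library, as the log2 of its CPM over the mean CPM of the 3 normoxia libraries, with genes on the vertical axis by role, hypoxia in red, normoxia in blue and replicate number as the symbol. The hypoxia symbols of Pdp2, Idh1, Cs and Dlat lie left of all their normoxia symbols, and those of Pdp1, Idh2 and Dlst lie right of them.

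**Figure D2:**
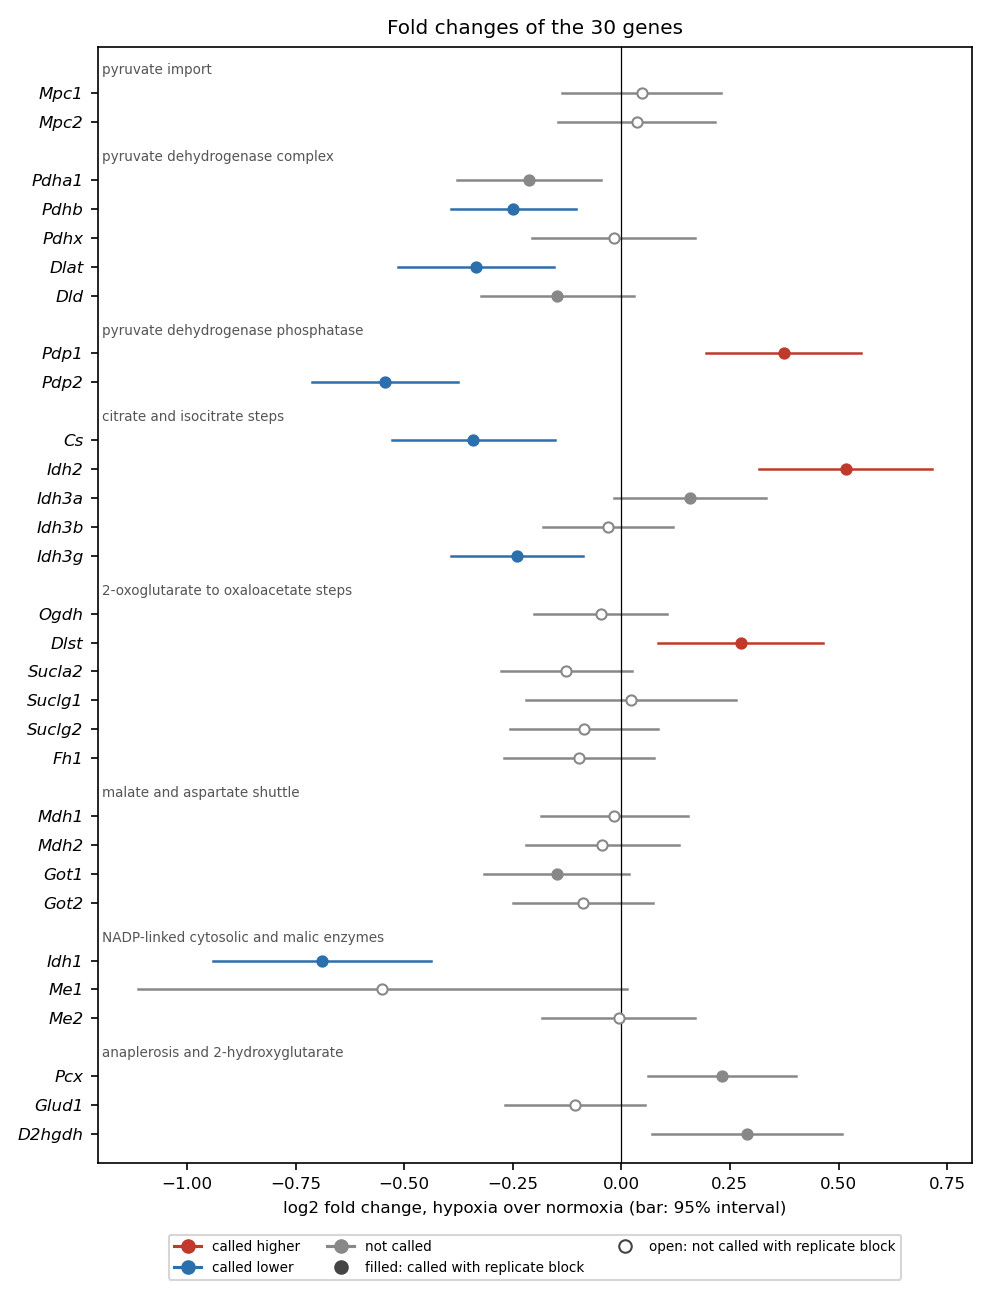
Log2 fold change of hypoxia over normoxia for each of the 30 genes, with its 95% interval as a bar, coloured by the call of the fit without the block and filled where the fit with the replicate block called it. Of the 30 intervals, that of Me1 is the widest, from -1.11 to 0.01.

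The 2 subunits of the mitochondrial pyruvate carrier, which brings pyruvate into the matrix, did not pass the test (edgeR, 0 also at an unadjusted p under 0.05 and 0 with DESeq2 or limma). Mpc1 averaged 38.2 ± 0.875 CPM under hypoxia and 37.0 ± 3.38 CPM under normoxia (mean ± SD, n = 3 libraries here and below), and Mpc2 averaged 30.04 ± 1.28 and 29.3 ± 2.21 CPM. The 95% intervals of their log2 fold changes ran from -0.14 to 0.23 and from -0.15 to 0.22.

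The pyruvate dehydrogenase complex converts pyruvate to acetyl-CoA. The fitted log2 fold changes of all 5 of its genes were below 0, and 2 of the 5 passed the test as lower. Over all genes tested, 50.8% lay below 0 and 9.72% were called lower. Dlat, which encodes the acetyltransferase core (E2), was at 69.8, 62.6 and 70.3 CPM in hypoxia replicates 1, 2 and 3 and at 91.4, 79.1 and 85.2 CPM in normoxia. Every hypoxia library lay below every normoxia library, and Dlat fell by 0.34 on the log2 scale (SE 0.08, 20.8% less, edgeR adjusted p = 0.016). Pdhb, the beta subunit of the E1 component, measured 74.5, 70.7 and 75.9 CPM in the hypoxia libraries and 88.1, 86.8 and 87.9 CPM in the normoxia libraries. Its groups did not overlap either, and its log2 fold change was -0.25 (SE 0.06, edgeR adjusted p = 0.022).

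Pdha1, the alpha subunit of E1, which carries the sites that the kinases phosphorylate, measured 102, 108 and 116 CPM in the hypoxia libraries and 129, 122 and 127 CPM in the normoxia libraries. The groups did not overlap, but the log2 fold change of -0.21 (SE 0.07) did not pass without the block (edgeR adjusted p = 0.070) and passed with it (0.0078) and with the DESeq2 Wald test (0.043). Dld, the dihydrolipoyl dehydrogenase that this complex shares with the 2-oxoglutarate dehydrogenase complex, averaged 79.9 ± 5.20 CPM under hypoxia and 88.5 ± 5.71 CPM under normoxia and overlapped between groups (log2 fold change -0.15 with an SE of 0.08 and an edgeR adjusted p of 0.22, and 0.033 with the block). Pdhx, the protein that anchors Dld to the core, stood at 16.5 ± 0.725 and 16.7 ± 1.11 CPM (95% interval of the log2 fold change -0.21 to 0.17).

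Summed per kilobase of transcript, the 5 genes of the complex held 140, 137 and 148 CPM per kb in hypoxia and 168, 159 and 167 CPM per kb in normoxia. The groups did not overlap in this sum, which fell by 14.01%. They were also separate in the sum of the citrate and isocitrate steps (-9.21%), and overlapped in those of the other roles and of all 30 genes (-4.41%). The call of Dlat was lost without hypoxia replicate 2 (log2 fold change -0.27, edgeR adjusted p = 0.099). That of Pdhb was lost without hypoxia replicates 1 or 2 (0.056 and 0.16), without normoxia replicates 2 or 3 (0.066 and 0.054) and with scaling by library size alone (0.086).

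Pyruvate dehydrogenase phosphatases remove the inhibitory phosphates from the complex, and their 2 catalytic subunits moved in opposite directions. Pdp2 measured 27.0, 26.3 and 27.5 CPM in the hypoxia libraries and 36.6, 41.0 and 40.3 CPM in the normoxia libraries, so that each hypoxia library lay below each normoxia library. Pdp2 fell 1.46-fold (log2 fold change -0.54 with an SE of 0.07 and an edgeR adjusted p of 0.00092), the smallest p of the 30 genes. Pdp1, the calcium-sensitive form, measured 56.3, 51.0 and 58.4 CPM in the hypoxia libraries and 45.0, 39.9 and 43.0 CPM in the normoxia libraries. Here each hypoxia library lay above each normoxia library, and Pdp1 rose 1.30-fold (log2 fold change 0.37 with an SE of 0.08 and an edgeR adjusted p of 0.0091).

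Per kilobase of transcript the 2 phosphatases together held 17.9 ± 1.01 CPM per kb in hypoxia and 17.0 ± 0.313 CPM per kb in normoxia, and the groups overlapped in this sum. The ratio of Pdp1 to Pdp2, both per kilobase, was 2.82, 2.63 and 2.87 in hypoxia and 1.67, 1.32 and 1.45 in normoxia. Pdp1 thus made up 73.5% of the summed level in hypoxia and 59.5% in normoxia. This pair was picked with its values known and its ratio was not tested. The calls of Pdp1 and Pdp2 each held in all 14 other settings tried.

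Citrate synthase opens the cycle by joining acetyl-CoA to oxaloacetate, and its gene Cs was lower in hypoxia. Cs measured 243, 215 and 224 CPM in the hypoxia libraries and 310, 270 and 283 CPM in the normoxia libraries. The highest hypoxia library lay below the lowest normoxia library, and Cs fell by 0.34 on the log2 scale (SE 0.08, 21.1% less, edgeR adjusted p = 0.018). The call was lost without hypoxia replicate 2 (-0.29, edgeR adjusted p = 0.10) and without hypoxia replicate 3 (-0.33, edgeR adjusted p = 0.061).

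The 3 genes of the NAD-dependent isocitrate dehydrogenase, the enzyme of the cycle proper, included 1 that passed the test, Idh3g. Idh3g, a regulatory subunit, measured 96.3, 93.0 and 101 CPM in the hypoxia libraries and 116, 111 and 115 CPM in the normoxia libraries, and fell by 0.24 on the log2 scale (SE 0.07, edgeR adjusted p = 0.032). Its groups did not overlap. Idh3a, the catalytic subunit, measured 90.7, 94.5 and 97.3 CPM in the hypoxia libraries and 80.1, 80.4 and 92.7 CPM in the normoxia libraries (log2 fold change 0.16 with an SE of 0.08 and an edgeR adjusted p of 0.19, and 0.023 with the block). The normoxia replicate 3 library overlapped the hypoxia group, while within each replicate number hypoxia was the higher (3 of 3).

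Idh3b, the other regulatory subunit, averaged 95.2 ± 4.54 CPM under hypoxia and 97.2 ± 0.279 CPM under normoxia (95% interval of the log2 fold change -0.18 to 0.12). Per kilobase of transcript, the ratio of Idh3a to Idh3g was 0.522, 0.563 and 0.532 in hypoxia and 0.381, 0.3996 and 0.445 in normoxia, without overlap; this pair too was picked with its values known. The call of Idh3g held in 6 of the 14 other settings, the fewest of the 9 called genes. It was lost without hypoxia replicate 1 (edgeR adjusted p = 0.091), 2 (0.19) or 3 (0.054), without normoxia replicate 2 (0.073) or 3 (0.081), without both replicate 1 libraries (0.060), with scaling by library size alone (0.10) and with no filter on low counts (0.058).

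Idh1 and Idh2 encode NADP-dependent isocitrate dehydrogenases, Idh1 in the cytosol and Idh2 in mitochondria. Both make NADPH while they convert isocitrate to 2-oxoglutarate, and both can run in reverse. Idh1 measured 10.8, 8.88 and 10.7 CPM in the hypoxia libraries and 18.3, 15.7 and 15 CPM in the normoxia libraries. All hypoxia libraries lay below all normoxia libraries, and Idh1 fell 1.61-fold (log2 fold change -0.69 with an SE of 0.11 and an edgeR adjusted p of 0.0023), the largest called change among the 30 genes. Idh2 measured 24.1, 26.2 and 26.1 CPM in the hypoxia libraries and 16.7, 16.9 and 19.7 CPM in the normoxia libraries. Its groups were separate in the other direction, and Idh2 rose 1.43-fold (log2 fold change 0.52 with an SE of 0.09 and an edgeR adjusted p of 0.0032). The calls of Idh1 and Idh2 held in all 14 other settings tried.

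Within each library, the ratio of Idh1 to Idh2 per kilobase of transcript needs no scaling between libraries. It was 0.341, 0.257 and 0.311 in hypoxia and 0.829, 0.706 and 0.576 in normoxia. The groups did not overlap, and the ratio was 2.31-fold lower in hypoxia (exact two-sided permutation test over 3 and 3 libraries, p = 0.10, the smallest that this design allows, and 0.40 adjusted over the 4 cytosolic and mitochondrial pairs). For the malate dehydrogenases the ratio of Mdh1 to Mdh2 was 0.652 ± 0.0329 in hypoxia and 0.640 ± 0.0237 in normoxia (n = 3, exact permutation p = 0.60). For the aspartate transaminases the ratio of Got1 to Got2 was 0.335 ± 0.00535 and 0.349 ± 0.0163 (n = 3, exact permutation p = 0.20), and for the malic enzymes that of Me1 to Me2 was 0.00503 ± 0.00104 and 0.00724 ± 0.00159 (n = 3, exact permutation p = 0.30). In these 3 pairs the groups overlapped.

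**Figure D3:**
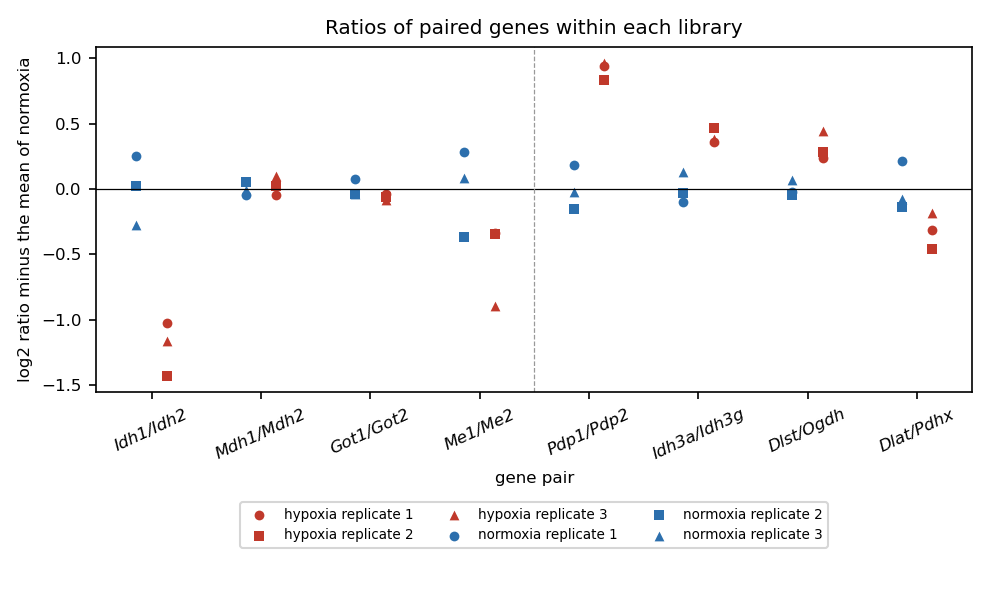
Ratio of paired genes within each library, as the log2 ratio of their levels per kilobase minus the mean of the 3 normoxia libraries, for the 4 cytosolic and mitochondrial pairs (left of the dashed line) and 4 pairs picked with their values known (right). Hypoxia libraries (red) lie below normoxia libraries (blue) for Idh1/Idh2 and above them for Pdp1/Pdp2, Idh3a/Idh3g and Dlst/Ogdh, and Dlat/Pdhx lies lower in hypoxia.

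The promoters of 5 genes that fell or rose are shown for the opposed pair Idh1 and Idh2, for Pdp2 and for the 2 called subunits of pyruvate dehydrogenase. The sequences are the 250 bases before each start in the RefSeq table for GRCm38.p6, an earlier build than that of the authors. Windows were found there for 27 of the 30 genes, and none was found for Pdp1, Idh3a or Me2. Capitals mark the core letters of the HIF site, ACGTG or GCGTG, on either strand (read as CACGT or CACGC on the other strand), and the E-box CACGTG, which contains the first of them on both strands. The windows are, all 5′ to 3′, Idh1 at its upstream start (chr1:65186480-65186729, minus strand) and its downstream start (chr1:65179143-65179392, minus strand), Idh2 (chr7:80115351-80115600, minus strand), Pdp2 (chr8:104591222-104591471, plus strand), Pdhb (chr14:8172993-8173242, minus strand) and Dlat (chr9:50659781-50660030, minus strand).
Idh1 upstream start: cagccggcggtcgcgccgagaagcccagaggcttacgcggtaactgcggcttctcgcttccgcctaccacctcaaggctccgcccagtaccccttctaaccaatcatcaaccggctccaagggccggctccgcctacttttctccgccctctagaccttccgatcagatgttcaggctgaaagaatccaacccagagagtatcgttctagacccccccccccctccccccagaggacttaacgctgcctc
Idh1 downstream start: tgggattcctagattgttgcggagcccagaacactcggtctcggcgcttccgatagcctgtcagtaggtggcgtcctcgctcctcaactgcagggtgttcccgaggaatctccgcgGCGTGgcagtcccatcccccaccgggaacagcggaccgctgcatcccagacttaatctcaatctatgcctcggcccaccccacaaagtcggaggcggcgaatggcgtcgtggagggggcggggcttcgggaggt
Idh2: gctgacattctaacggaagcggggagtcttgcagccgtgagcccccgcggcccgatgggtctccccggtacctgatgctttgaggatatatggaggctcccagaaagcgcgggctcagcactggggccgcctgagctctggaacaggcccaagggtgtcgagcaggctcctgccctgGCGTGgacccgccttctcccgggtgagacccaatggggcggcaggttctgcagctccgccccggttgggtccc
Pdp2: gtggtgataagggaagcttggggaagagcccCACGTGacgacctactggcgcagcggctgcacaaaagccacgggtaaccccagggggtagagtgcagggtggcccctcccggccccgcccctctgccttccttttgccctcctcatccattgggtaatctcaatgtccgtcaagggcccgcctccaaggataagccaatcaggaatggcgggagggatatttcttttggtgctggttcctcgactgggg
Pdhb: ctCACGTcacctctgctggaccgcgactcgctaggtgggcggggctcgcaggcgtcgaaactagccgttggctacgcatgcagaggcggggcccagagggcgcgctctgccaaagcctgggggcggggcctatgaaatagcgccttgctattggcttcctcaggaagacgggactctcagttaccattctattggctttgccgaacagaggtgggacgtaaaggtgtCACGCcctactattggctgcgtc
Dlat: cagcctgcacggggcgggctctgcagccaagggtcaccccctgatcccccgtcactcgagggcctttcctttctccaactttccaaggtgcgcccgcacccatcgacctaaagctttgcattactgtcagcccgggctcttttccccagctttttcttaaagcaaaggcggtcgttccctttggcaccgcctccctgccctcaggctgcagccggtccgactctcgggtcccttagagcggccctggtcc

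The core letters stood in windows of genes that rose and of genes that fell. Of the 8 called genes with a window, 5 held a match (Pdp2, Idh1 at its downstream start, Idh2, Pdhb and Idh3g) and 3 held none (Dlat, Cs and Dlst). The opposed pair Idh1 and Idh2 thus both had a match. Counted by gene, 20 of the 27 genes with a window (74.1%) held a match in any of their windows. That share was not counted over all genes. Counted by window, 69.4% of the 36 windows of the 30 genes held a match. Several of these windows are alternative starts of Ogdh, some of which overlap, and all windows of Ogdh held a match. In comparison, 38.6% of all 32851 windows and 54.2% of the 13392 windows of tested genes held a match. The E-box stood in the windows of 3 of the 27 genes (Ogdh, Pcx and Pdp2). These were 13.9% of the 36 windows, 3 of them alternative starts of Ogdh, beside 6.02% of all windows and 8.04% of those of tested genes. AAGGTCA, a half-site of the estrogen-related receptors, which are known regulators of mitochondrial genes, was in the window of Got1 alone (4.08% of all windows and 3.00% of those of tested genes), both strands searched. A match in letters is a description of the window and shows no binding.

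The 6 genes for the steps from 2-oxoglutarate to malate gave a single call. Dlst, the succinyltransferase core of the 2-oxoglutarate dehydrogenase complex, measured 234, 242 and 265 CPM in the hypoxia libraries and 195, 195 and 222 CPM in the normoxia libraries. Each hypoxia library lay above each normoxia library, and Dlst rose 1.21-fold (log2 fold change 0.27 with an SE of 0.09 and an edgeR adjusted p of 0.046). This value is near the threshold, and the call was lost without each hypoxia replicate (0.069, 0.12 and 0.16 without 1, 2 and 3), without normoxia replicates 1 or 2 (0.081 and 0.16), with DESeq2 size factors (0.051) and with no filter on low counts (0.054). With the replicate block it was 0.00094.

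Ogdh, the decarboxylase of the same complex, averaged 172 ± 1.91 CPM under hypoxia and 178 ± 5.91 CPM under normoxia (95% interval of the log2 fold change -0.20 to 0.11). The ratio of Dlst to Ogdh per kilobase was 2.02, 2.08 and 2.33 in hypoxia and 1.68, 1.66 and 1.80 in normoxia, without overlap, in a pair also picked with its values known. Among the succinyl-CoA ligase genes, Sucla2 of the ATP-forming enzyme was at 50.5 ± 1.93 and 55.1 ± 1.68 CPM, and its groups did not overlap, but its log2 fold change of -0.13 (SE 0.07) did not pass (edgeR adjusted p = 0.22, and 0.056 with the block). Suclg2 of the GTP-forming enzyme stood at 62.1 ± 1.94 and 65.9 ± 5.24 CPM.

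Suclg1, the alpha subunit that both ligases share, measured 57.0, 62.9 and 74.9 CPM in the hypoxia libraries and 59.5, 61.5 and 70.7 CPM in the normoxia libraries. Its spread within a group was wider than its difference between groups, and replicate 3 was the highest in both (95% interval of the log2 fold change -0.22 to 0.26). Fh1, the fumarate hydratase, averaged 80.5 ± 5.30 CPM under hypoxia and 86.1 ± 5.05 CPM under normoxia and overlapped (log2 fold change -0.10 with an SE of 0.08 and an edgeR adjusted p of 0.42).

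The malate and aspartate shuttle carries reducing equivalents from the cytosol into mitochondria, and none of its 4 enzyme genes passed without the block (edgeR, 0 also at an unadjusted p under 0.05 and 0 with DESeq2 or limma). Mdh1 and Mdh2, the cytosolic and mitochondrial malate dehydrogenases, stood at 226 ± 9.69 and 238 ± 7.33 CPM under hypoxia and at 229 ± 11.8 and 246 ± 17.4 CPM in normoxia. The intervals of their log2 fold changes, -0.19 to 0.15 and -0.22 to 0.13, leave room for changes of about that size. Got1, the cytosolic aspartate transaminase, measured 58.1, 53.7 and 56.3 CPM in the hypoxia libraries and 66.4, 57.9 and 62.1 CPM in the normoxia libraries. The groups overlapped slightly, hypoxia was lower within each replicate number, and the log2 fold change of -0.15 (SE 0.07) had an edgeR adjusted p of 0.19, and of 0.028 with the block. Got2, its mitochondrial counterpart, stood at 206 ± 7.66 and 219 ± 7.51 CPM (edgeR adjusted p = 0.44).

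Of the malic enzymes, which turn malate into pyruvate, Me2 in mitochondria was abundant and Me1 in the cytosol was scarce. Me2 averaged 172 ± 6.53 CPM under hypoxia and 173 ± 12.5 CPM under normoxia (log2 fold change -0.0060, 95% interval -0.18 to 0.17). Me1 measured 1.21, 1.16 and 0.853 CPM in the hypoxia libraries and 2.00, 1.10 and 1.63 CPM in the normoxia libraries. The normoxia replicate 2 library lay below 2 hypoxia libraries, and the log2 fold change of -0.55 (SE 0.25) did not pass (edgeR adjusted p = 0.16, and 0.071 with the block). Its interval was wide, from -1.11 to 0.01.

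Of the 3 genes that refill the cycle or clear a side product, 0 passed without the block (edgeR, 2 at an unadjusted p under 0.05, and 0 with DESeq2 or limma) and 2 were called higher with it. Pcx, the pyruvate carboxylase that makes oxaloacetate from pyruvate, measured 15.9, 15.5 and 15.9 CPM in the hypoxia libraries and 13.2, 13.9 and 13.2 CPM in the normoxia libraries. The groups did not overlap, and the log2 fold change of 0.23 (SE 0.08) had an edgeR adjusted p of 0.058 without the block and of 0.017 with it, and Pcx also passed with a stricter filter (0.042) and with scaling by library size alone (0.022). D2hgdh, which oxidises D-2-hydroxyglutarate back to 2-oxoglutarate, measured 22.5, 20.8 and 19.1 CPM in the hypoxia libraries and 18.9, 16.4 and 15.7 CPM in the normoxia libraries. Its lowest hypoxia library was just above its highest normoxia library (log2 fold change 0.29 with an SE of 0.10 and an edgeR adjusted p of 0.063, and 0.0028 with the block), and it passed without normoxia replicate 1 (0.017), without both replicate 1 libraries (0.034), with a stricter filter (0.043) and with scaling by library size alone (0.021). Glud1, the glutamate dehydrogenase that feeds glutamine carbon into the cycle, measured 213, 203 and 220 CPM in the hypoxia libraries and 235, 221 and 228 CPM in the normoxia libraries. Its groups did not overlap, with hypoxia below, but it did not pass (log2 fold change -0.11 with an SE of 0.07 and an edgeR adjusted p of 0.34, and 0.11 with the block).

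Levels per kilobase of transcript spread widely among the 30 genes. Mdh2, at 164 ± 5.03 CPM per kb in hypoxia and 169 ± 12.0 CPM per kb in normoxia, was the highest and lay above 97.5% of all genes tested, and Me1, at 0.327 and 0.479 CPM per kb, was the lowest. Pcx, at 3.80 and 3.24 CPM per kb, was the next lowest, and 27 of the 30 genes were above the median of all genes tested. The order of Cs and Dlst differed between the groups. In normoxia Cs stood at 98.3 ± 7.06 and Dlst at 73.8 ± 5.60 CPM per kb, and in hypoxia Cs stood at 77.6 ± 4.81 and Dlst at 89.3 ± 5.81 CPM per kb. Neighbours such as Suclg1 and Ogdh, at 42.4 CPM per kb each over all libraries, could not be ordered, and any order rests on the transcript lengths used.

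**Figure D4:**
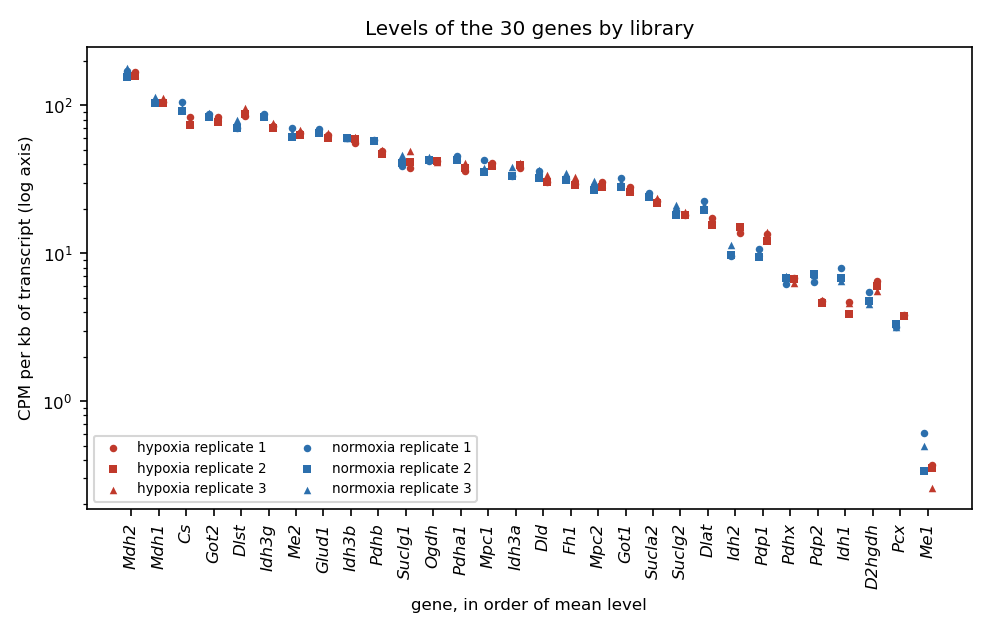
Level of each of the 30 genes in each library, in CPM per kilobase of transcript on a log axis, with genes in order of their mean over the 6 libraries, hypoxia in red and normoxia in blue. The level falls from 166 for Mdh2 to 0.403 for Me1, and the gap between genes is far wider than that between the groups.

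A further 47 genes of the pathway were listed by function beside the 30, and 42 passed the filter. Of these, 5 were higher and 6 lower (11.9% and 14.3% of 42, beside 11.2% and 9.72% of all genes). With the replicate block 9 were higher and 7 lower, together 38.1% of 42, a share close to the 39.2% of all genes. The number higher fell to 3 without hypoxia replicates 1 or 2 or normoxia replicate 3, and to 2 without normoxia replicate 2. Pdk4, Slc25a18, Slc25a21, Pck1 and Adhfe1 were too low to test. The listed genes that rose included 3 that act on the pyruvate dehydrogenase complex. Pdk1, a kinase that switches the complex off, measured 287, 287 and 281 CPM in the hypoxia libraries and 260, 227 and 224 CPM in the normoxia libraries (log2 fold change 0.27 with an SE of 0.08 and an edgeR adjusted p of 0.043). Pdk2, another of these kinases, measured 4.90, 4.29 and 3.43 CPM in the hypoxia libraries and 2.89, 2.17 and 1.74 CPM in the normoxia libraries (log2 fold change 0.89 with an SE of 0.21 and an edgeR adjusted p of 0.014). Pdpr, the regulatory subunit of the phosphatase that Pdp1 forms, rose from 19.4 ± 0.795 to 25.7 ± 1.57 CPM (log2 fold change 0.40 with an SE of 0.08 and an edgeR adjusted p of 0.0065). In all 3 genes the hypoxia libraries lay above the normoxia libraries, while Pdk3 stood at 57.5 ± 4.86 and 55.4 ± 7.77 CPM and did not pass.

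Genes of glutamine and alanine entry were among those that fell. Of the 7 listed for glutamine and transaminase entry, 3 were lower and 0 higher (edgeR, 5 at an unadjusted p under 0.05), where 9.72% and 11.2% of all genes were. With the block 3 were lower and 1, Glul, was higher. Glul, the glutamine synthetase gene, measured 80.5, 73.2 and 67.7 CPM in the hypoxia libraries and 67.3, 57.6 and 55.3 CPM in the normoxia libraries. Its groups did not overlap (log2 fold change 0.30 with an SE of 0.09 and an edgeR adjusted p of 0.051, and 0.00046 with the block). Gpt2, the mitochondrial alanine transaminase, measured 7.77, 6.96 and 7.56 CPM in the hypoxia libraries and 20.7, 15.9 and 15.2 CPM in the normoxia libraries (log2 fold change -1.22 with an SE of 0.13 and an edgeR adjusted p of 0.00020). Slc1a5 and Slc38a2, plasma membrane carriers of glutamine, fell by 0.33 and 0.39 on the log2 scale (SE 0.07 for both, edgeR adjusted p = 0.012 and 0.0035), from 453 ± 21.6 to 361 ± 7.93 CPM and from 249.3 ± 3.41 to 190 ± 4.37 CPM.

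Among other enzymes of entry and exit, Pck2, the mitochondrial phosphoenolpyruvate carboxykinase that withdraws oxaloacetate, measured 52.1, 49.4 and 49.1 CPM in the hypoxia libraries and 117, 101 and 80.5 CPM in the normoxia libraries (log2 fold change -0.99 with an SE of 0.12 and an edgeR adjusted p of 0.00045). Pcca, a subunit of propionyl-CoA carboxylase, fell from 16.0 ± 1.17 to 10.8 ± 0.935 CPM, and Slc25a12, an aspartate and glutamate carrier of the shuttle, from 56.5 ± 1.89 to 47.0 ± 3.16 CPM (edgeR adjusted p = 0.0030 and 0.031). Ogdhl, a relative of Ogdh, and Ldhb, a lactate dehydrogenase gene, were called higher at levels of at most 0.675 and 0.450 CPM, and no fold is given for them. Ldha, the main lactate dehydrogenase gene here, averaged 2879 ± 158 CPM under hypoxia and 2580 ± 233 CPM under normoxia, overlapped between groups and did not pass (log2 fold change 0.16 with an SE of 0.09 and an edgeR adjusted p of 0.25, and 0.043 with the block). None of the 8 genes of succinate dehydrogenase and its assembly passed without the block (edgeR, 0 also at an unadjusted p under 0.05), and Sdhb was called lower with it (edgeR adjusted p = 0.0024).

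**Figure D5:**
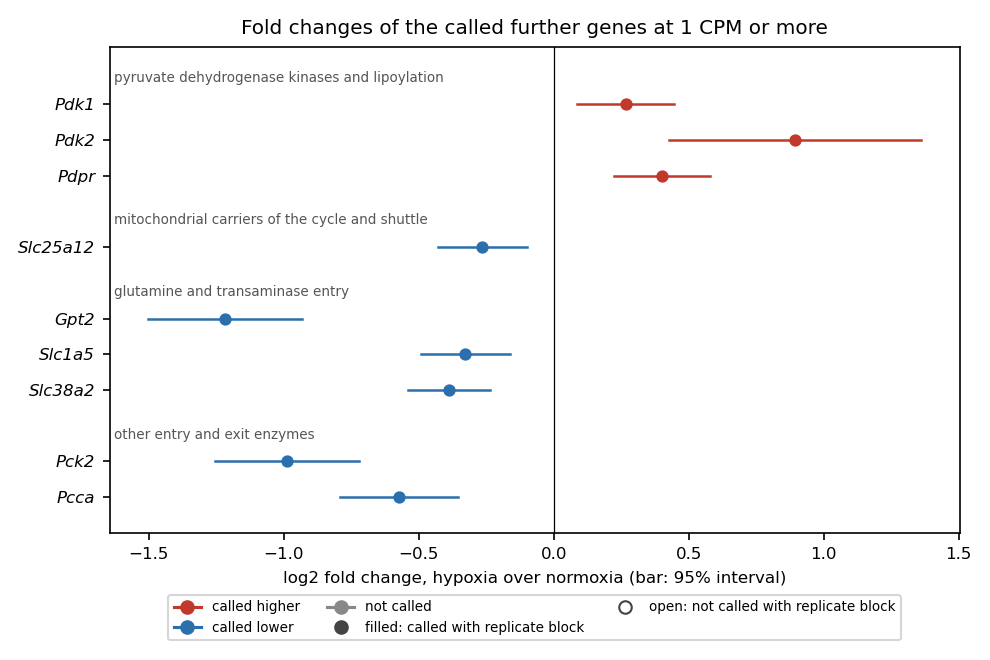
Log2 fold change of hypoxia over normoxia with its 95% interval for the 9 called further genes of the pathway with a mean of at least 1 CPM in either group, with the colours and filling of the plot for the 30 genes. Gpt2 and Pck2 lie farthest to the left, at -1.22 and -0.99, and Pdk2 farthest to the right, at 0.89.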

How the data were processed

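Estimated counts per Ensembl gene were deposited by the authors for each library, and were not normalized; 69.5% of values were whole numbers (tolerance 1e-06). The files deposited as CPM held log2 values, equal to edgeR's log2 CPM of those counts within 5.3e-15 (prior count 2), and were not tested. Per the submitters' processing notes, Trim Galore 0.6.4, kallisto 0.4.6, edgeR 3.17 and the build GRCm39 were used, with no settings given. Kallisto shares reads among similar transcripts. Copies were looked up by name only, and those found were Mdh1b, Got1l1, Pdha2, Got2-ps1, Mpc1-ps and Glud-ps. Each held at most 0.295% of the level of the gene it is named after. Copies under other names were not searched, so this does not cover all 30 genes. The strand setting of the counting is not given in the sources used here.

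Symbols and transcript lengths came from GENCODE M21, an earlier build. The length is that of the principal transcript, or of the longest where none is marked. Mmut is listed as Mut. Counts were rounded, filtered with filterByExpr (minimum count 10, total 15), scaled with TMM and tested without covariates by the quasi-likelihood test of edgeR 4.0.16 in R 4.3.3, with Benjamini-Hochberg adjustment over all genes and a threshold of 0.05. SEs are the log2 fold change over the root of F, and the 95% intervals use the degrees of freedom of that test. limma 3.58.1 and DESeq2 1.42.0 served for alternatives. The edgeR fit was tried on simulated counts, and the permutation test on small sets of known values. The other steps had no such check.

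The members and lists were chosen with earlier results of these data known, so no list was tested as a set. The genes named are all 30 members, and of the further genes those called, with a few others chosen after their values were seen. Values of some further genes are not reported here. After each group's mean was subtracted, hypoxia and normoxia libraries with the same number correlated over all genes (r = 0.47, 0.33 and 0.298, criterion 0.1), so the replicate numbers in the labels were taken to pair the libraries. Among libraries with different numbers, hypoxia replicate 2 and normoxia replicate 3 also passed the criterion (r = 0.118), and the rest were at -0.35 to -0.0125. As a mean over genes, libraries of a group differed by more than sampling noise (chi-square per gene 12.5 to 61.8). This mean need not hold for a single gene, and counting error was not set against the spread of each of the 30 genes. The SD of some was small, as for Pcx under hypoxia (0.183 CPM) and Idh3b under normoxia (0.279 CPM).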

Additional observations from a re-analysis of the deposited data

How the results depend on the processing

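The calls of Pdp1, Pdp2, Idh1 and Idh2 held in all 14 other settings, and those of the other 5 called genes in 6 to 13. Scaling by library size alone gave 2384 genes higher and 999 lower (1745 and 1516 with TMM), 5 of the 30 genes and 9 of the further genes higher, and a median of 0.016 for the 30 genes, with all genes shifted to a median of 0.08. The uncalled genes Pdhx (0.064), Idh3b (0.052), Ogdh (0.035), Mdh1 (0.066), Mdh2 (0.039) and Me2 (0.078) changed sign there. A stricter filter (1 CPM) gave 5 of the 30 genes higher and Me2 at 0.011. Without both replicate 1 libraries Idh3b was at 0.0076 and Me2 at 0.047.

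The replicate block raised the calls to 2988 genes higher and 3120 lower, with 6 of the 30 genes and 9 of the further genes higher. The block ended no call among the 9 genes. For the Idh1 to Idh2 ratio the same-numbered differences ran from -1.46 to -0.89 (exact sign-flip p = 0.25, the smallest that 3 pairs allow).

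With 1 library left out, 1146 (without normoxia replicate 2) to 1980 genes were higher and 804 (without hypoxia replicate 2) to 1636 lower. Without hypoxia replicate 2 there were 1160 higher, and without normoxia replicate 2 there were 942 lower. Of the 30 genes, 2 to 3 were higher and 2 to 6 lower, and of the further genes 2 to 6 were higher. Signs of uncalled genes turned within -0.0098 to 0.12 for Mpc1, -0.017 to 0.092 for Mpc2, -0.072 to 0.020 for Pdhx, -0.059 to 0.0051 for Idh3b, -0.091 to 0.11 for Suclg1, -0.049 to 0.024 for Mdh1 and -0.060 to 0.046 for Me2, and the log2 difference of the Mdh1 to Mdh2 ratio within -0.011 to 0.061. The cause of these changes was not tested. With 3 libraries a group, the exact test of a ratio cannot pass 0.05.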
